A study of Mus musculus with 4 samples.

Results

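The genes of cholesterol and fatty acid synthesis were followed across 4 Affymetrix arrays of mouse CD11c+ dendritic cells, the antigen-presenting cells that carry the integrin CD11c. The 31 genes were listed by name from the sterol branch (17 genes) and the fatty acid branch (14 genes), and every probe set annotated to each of them was read. Of these, 30 genes were named by a probe set and all 30 had a signal above the floor on at least 1 array, out of 12393 genes named and 9473 measured in all. Insig1, which retains the sterol-sensing complex in the endoplasmic reticulum, has no expression value here and enters the promoter windows alone. All 4 groups were IL10-/-, so the controls also lack interleukin 10, and all had been incubated for 6 hours: with SEA and LPS together (SEA/LPS), with LPS, with SEA, or in media alone (MEDIA). LPS is bacterial lipopolysaccharide; SEA is given as the labels write it, without expansion. The labels give no tissue of origin, dose or number of animals. Each group was 1 array, so the differences have no replicate check, no error between samples can be given, and precision is limited by having 4 arrays.

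Sterols and fatty acids are both built from cytosolic acetyl-CoA. The sterol branch runs through mevalonate, isoprenoid diphosphates and squalene to cholesterol, and the fatty acid branch runs through malonyl-CoA to palmitate, which is then elongated and desaturated. SREBP-2 (Srebf2) and SREBP-1 (Srebf1) are membrane-bound transcription factors that are released when sterols are scarce or, for SREBP-1c, induced through insulin and LXR, and they drive genes of both branches. In dendritic cells and macrophages these lipids supply membranes, and oxysterols made on stimulation act back on the same regulators.

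Promoter windows of 300 bases, from 250 bases before to 50 bases after an annotated start, were matched for 24 of the 31 genes, as 30 windows (RefSeq, GRCm38.p6). Scd1, Sqle, Fads1, Fdft1, Scd2, Stard4 and Fdps were not matched. The 5 windows printed here belong to members with contrasting values. By the probe sets used, Hmgcs1 was under 2-fold lower with LPS than in MEDIA, Mvd was lower and Idi1 higher. Fasn and Lpin1 of the fatty acid branch were both lower. For Mvd the other probe set gave a log2 difference of only -0.13. The windows lie at chr13:119690101-119690400 (plus strand, Hmgcs1), chr8:122443373-122443672 (minus strand, Mvd), chr13:8885356-8885655 (plus strand, Idi1), chr11:120824498-120824797 (minus strand, Fasn) and chr12:16610917-16611216 (minus strand, Lpin1). Each is written 5′ to 3′ on the strand of the gene, and capitals mark matches to the 4 motifs described after them.
Hmgcs1: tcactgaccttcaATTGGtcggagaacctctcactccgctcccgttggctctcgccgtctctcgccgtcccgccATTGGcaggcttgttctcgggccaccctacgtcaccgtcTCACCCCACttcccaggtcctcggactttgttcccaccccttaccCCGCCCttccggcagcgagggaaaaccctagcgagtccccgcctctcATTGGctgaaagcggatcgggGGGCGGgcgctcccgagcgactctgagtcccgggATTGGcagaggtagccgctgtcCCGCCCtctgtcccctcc
Mvd: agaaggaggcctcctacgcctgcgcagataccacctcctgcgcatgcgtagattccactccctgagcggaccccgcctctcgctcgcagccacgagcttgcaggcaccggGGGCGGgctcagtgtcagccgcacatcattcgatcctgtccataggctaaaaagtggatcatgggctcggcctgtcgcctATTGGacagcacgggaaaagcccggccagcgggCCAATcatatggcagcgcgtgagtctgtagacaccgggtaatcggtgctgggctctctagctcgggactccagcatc
Idi1: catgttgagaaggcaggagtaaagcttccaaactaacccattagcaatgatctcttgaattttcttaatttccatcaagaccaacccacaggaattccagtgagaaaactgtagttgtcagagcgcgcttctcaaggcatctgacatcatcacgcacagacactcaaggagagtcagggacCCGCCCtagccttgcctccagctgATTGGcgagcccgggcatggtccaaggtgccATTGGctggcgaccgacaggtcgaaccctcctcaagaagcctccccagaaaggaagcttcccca
Fasn: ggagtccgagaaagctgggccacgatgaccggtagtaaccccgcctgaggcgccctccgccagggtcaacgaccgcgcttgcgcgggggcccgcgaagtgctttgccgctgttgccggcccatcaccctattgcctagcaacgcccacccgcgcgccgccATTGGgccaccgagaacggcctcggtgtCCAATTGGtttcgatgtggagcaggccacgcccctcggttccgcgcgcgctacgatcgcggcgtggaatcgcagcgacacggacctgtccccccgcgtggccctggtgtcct
Lpin1: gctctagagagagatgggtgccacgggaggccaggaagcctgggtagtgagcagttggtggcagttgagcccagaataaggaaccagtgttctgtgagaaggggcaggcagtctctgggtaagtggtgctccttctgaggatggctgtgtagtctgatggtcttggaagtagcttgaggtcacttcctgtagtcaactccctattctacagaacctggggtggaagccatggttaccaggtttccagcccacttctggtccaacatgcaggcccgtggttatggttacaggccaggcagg

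The motifs were searched by their letters on both strands. The core of the sterol regulatory element, TCACNCCAC, to which SREBP proteins are known to bind, was found in 1 of 16 sterol windows, that of Hmgcs1, and in 0 of 14 fatty acid windows, against 1.14% of the 9904 windows of measured genes. The NF-Y box, ATTGG, was found in 13 of 16 sterol windows (81.2%), at least once in every one of the 13 sterol genes matched, and in 7 of 14 fatty acid windows (50.0%), against 36.6% of windows of measured genes. The GC box, GGGCGG, was found in 13 of 16 sterol windows (81.2%) and 8 of 14 fatty acid windows (57.1%), against 59.4% of windows of measured genes. The E-box, CACGTG, was found in 4 sterol windows (25.0%) and 1 fatty acid window (7.14%), against 9.57% of windows of measured genes. A direct repeat of AGGTCA spaced by 4 bases, the form to which LXR with RXR binds, was found in none of the member windows and in 0.0152% of all 32851 windows. In the windows shown, Hmgcs1 holds all of the first 3 kinds, Mvd and Idi1 hold 2 NF-Y boxes and 1 GC box each, Fasn holds 3 NF-Y boxes of which the last pair overlap, and Lpin1 holds no match. A match is a description of the letters, and several genes have more than 1 window.

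**Figure D1:**
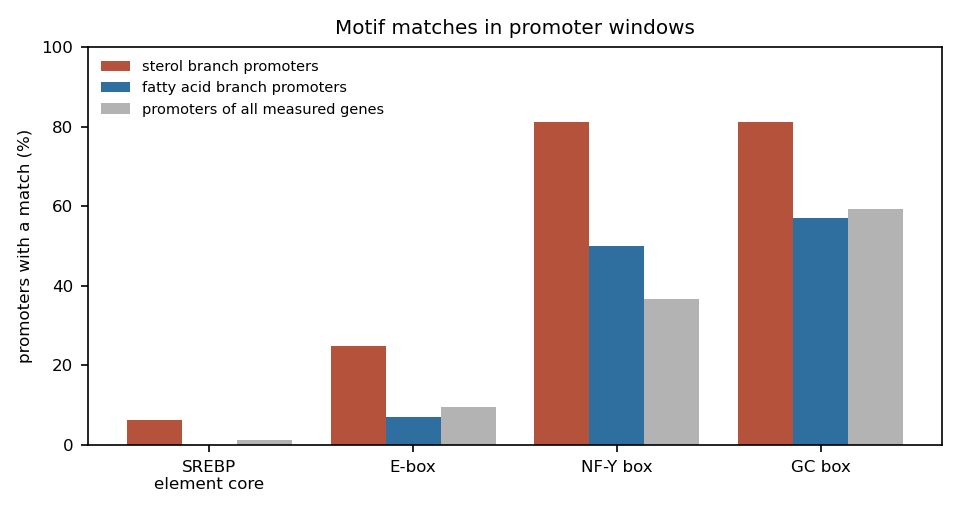
Share of promoter windows with at least 1 match to each motif (y axis, percent), for 16 windows of the sterol branch, 14 windows of the fatty acid branch and 9904 windows of measured genes. The NF-Y box stands at 81.2% in sterol windows, 50.0% in fatty acid windows and 36.6% in windows of measured genes.

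Signals are the deposited linear intensities, with a 2% trimmed mean equal on all 4 arrays. Values under 33.3, the 40th percentile of all values, were raised to this floor before log2, so where the dimmer array was under it a fold is a bound, written "at least". Where a gene had several probe sets, the one with the highest mean log2 signal stands for the gene, and its other measured probe sets are given beside it for LPS over MEDIA. Array medians ran from 45.0 (SEA/LPS) to 53.2 (SEA), and 57.3% (SEA/LPS) to 61.1% (SEA) of values lay above the floor. Dendritic cell markers were above the floor for 10 or 11 of 11 genes on each array, with summed signals between 23149.6 (SEA/LPS) and 29891.1 (LPS), and macrophage markers for 5 of 5. Most of the dendritic cell sum came from Cd74, H2-Ab1 and H2-Aa on each array. Neutrophil markers summed to 407 with SEA/LPS, 379 with LPS, 294 with SEA and 255 in MEDIA, with 3 or 4 of 6 above the floor, and the lists for B, T, NK, erythroid and stromal cells had at most 2 genes above the floor on any array. The part of other cells in the results was not tested, and fewer cells of a type and less RNA per cell cannot be told apart. Disagreement between probe sets of 1 gene had an SD of 0.48 on the log2 scale for LPS over MEDIA, 0.35 for SEA over MEDIA and 0.45 for SEA/LPS over LPS. The 3′ to 5′ signal ratio of a control gene reflects how intact the RNA was. For Gapdh it was 3.12 with SEA/LPS, 2.42 with LPS, 2.69 with SEA and 2.21 in MEDIA. For Actb it was 1.26 with SEA/LPS, 1.24 with LPS, 1.37 with SEA and 1.2 in MEDIA. The part of RNA quality in the results was not tested. The SD between probe sets covers the array's own technical disagreement and not the variation between cultures.

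With LPS alone, the listed member genes were mostly lower than in MEDIA, more so in the fatty acid branch as listed. Of the 30 measured members, 10 were at least 2-fold lower (33.3%) and 1 was at least 2-fold higher, against 8.43% of all measured genes lower and 6.06% higher. The fatty acid branch had 7 of 14 lower (50.0%) and 0 higher, with a median log2 difference of -0.99, and the sterol branch had 3 of 16 lower (18.8%) and 1 higher, with a median of -0.42. The median over all measured genes was -0.06. Of the 30 members, 25 lay below 0 (83.3%), against 53.3% of all genes. The 25 include Dhcr7, which exceeded the floor in MEDIA alone, so that its direction was fixed by the floor rule. The 18 hybridisation control probe sets, spiked into every sample, were 0.55 higher with LPS than in MEDIA on the log2 scale, and 0.31 higher with SEA/LPS. Scaled to them, 15 of 30 members were at least 2-fold lower with LPS, against 25.5% of all genes, whose median moved to -0.56. The difference between the branches has no test, since each comparison rests on 1 array a group. It also depends on the genes listed, since the neighbouring lists described below had the reverse order. Their medians were -1.03 over 6 other sterol synthesis enzymes and 0.00 over 12 other fatty acid synthesis genes.

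In the mevalonate segment, which makes the isoprene unit, Hmgcs1 (HMG-CoA synthase) had a signal of 433 with SEA/LPS, 280 with LPS, 443 with SEA and 371 in MEDIA. The LPS array was the lowest of the 4, for a log2 difference of -0.41 between LPS and MEDIA. Its 3 other probe sets also lay below 0, at -0.53, -1.42 and -0.22. Pmvk, phosphomevalonate kinase, had 52.0 with SEA/LPS, 10.4 with LPS, 59.4 with SEA and 83.8 in MEDIA, so it was under the floor with LPS alone and at least 2.52-fold lower there than in MEDIA. Mvd, the decarboxylase that ends the segment, had 99.1 with SEA/LPS, a value under the floor with LPS, 163 with SEA and 156 in MEDIA. This put it at least 4.69-fold lower with LPS, on a probe set marked as able to cross-hybridise. Its probe sets disagreed: the other one, unmarked, had 102 with LPS against 112 in MEDIA, a log2 difference of -0.13. Mvk, mevalonate kinase, exceeded the floor on the SEA array alone, at 58.6, against 13.7 with SEA/LPS, 14.8 with LPS and 16.6 in MEDIA, and no difference between LPS and MEDIA can be given for it.

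Downstream of mevalonate, Idi1 was the exception. It encodes isopentenyl diphosphate isomerase, and its signal was 472 with SEA/LPS, 338 with LPS, 165 with SEA and 146 in MEDIA. Both arrays with LPS exceeded both arrays without it, and LPS was 2.31-fold above MEDIA. The share of all measured genes whose arrays separate in this way was not counted, so such a separation is a description alone, here and below. The second Idi1 probe set had 167 with SEA/LPS, 114 with LPS, 70.4 with SEA and 57.5 in MEDIA, in the same order, with LPS 1.98-fold above MEDIA. Scaled to the hybridisation controls, Idi1 stayed higher with LPS at a log2 difference of 0.66, which is under 2-fold. Among all measured genes, 4.28% had a log2 difference as high as that of Idi1. Fdps, farnesyl diphosphate synthase, had 38.8 with SEA/LPS, 19.7 with LPS, 59.7 with SEA and 58.3 in MEDIA, again under the floor with LPS alone.

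At squalene and the sterol rings, Sqle (squalene epoxidase, a rate-controlling step) had 98.3 with SEA/LPS, 95.4 with LPS, 255 with SEA and 277 in MEDIA. The arrays with LPS and those without did not overlap, and LPS was 2.90-fold below MEDIA. Fdft1, squalene synthase, went the other way on the probe set used, with 142 with LPS against 81.0 in MEDIA (log2 0.81). Its other probe sets did not share that value: they gave 0.55, 0.00 and at least 2.18-fold lower, so its direction depends on the probe set. Cyp51, the lanosterol demethylase, had 116 with SEA/LPS, 59.5 with LPS, 77.2 with SEA and 82.8 in MEDIA (log2 -0.48 for LPS over MEDIA). Lss (lanosterol synthase) at -0.40, Nsdhl (sterol C4 decarboxylation) at -0.10, Hsd17b7 (3-keto-sterol reduction) at -0.08 and Sc5d (sterol C5 desaturation) at -0.65 all had log2 differences under 2-fold between LPS and MEDIA. Their other probe sets, and that of Cyp51, lay near the floor: the second one of Sc5d went the other way, at least 1.19-fold higher with LPS, those of Cyp51 and Hsd17b7 were at least 1.21-fold and at least 1.29-fold lower, and that of Lss was under the floor both with LPS and in MEDIA. Dhcr7, the last reductase, exceeded the floor in MEDIA alone, at 49.6, against 28.1 with SEA/LPS, 24.0 with LPS and 22.3 with SEA.

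The regulator and the carrier of this branch were both under 2-fold lower with LPS than in MEDIA. Srebf2 had 86.9 with SEA/LPS, 159 with LPS, 140 with SEA and 193 in MEDIA, a log2 difference of -0.28 for LPS over MEDIA, and -0.34 on its other probe set. Its lowest signal was on the SEA/LPS array. Stard4, a cytosolic sterol carrier and SREBP target, had 86.8 with SEA/LPS, 112 with LPS, 172 with SEA and 151 in MEDIA, so both arrays with LPS lay below both without. Its log2 difference for LPS over MEDIA was -0.42, and -0.44 on its other probe set.

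Acetyl-CoA supply comes from 2 enzymes, and for both the probe sets gave different sizes. Acly, which cleaves citrate, had 425 with SEA/LPS, 475 with LPS, 557 with SEA and 482 in MEDIA, a log2 difference of -0.02 for LPS over MEDIA, on a probe set marked as able to cross-hybridise. An unmarked Acly probe set had 352 with SEA/LPS, 372 with LPS, 425 with SEA and 556 in MEDIA, a log2 difference of -0.58 for LPS over MEDIA, and a dimmer one gave a log2 difference of 0.09. Acss2, which activates acetate, had 136 with SEA/LPS, 83.8 with LPS, 208 with SEA and 193 in MEDIA, 2.30-fold lower with LPS than in MEDIA. The second Acss2 probe set gave a log2 difference of -0.44. In chain synthesis, Fasn (fatty acid synthase) had 66.5 with SEA/LPS, 48.4 with LPS, 157 with SEA and 108 in MEDIA. Its 2 arrays with LPS lay below its 2 arrays without, and LPS was 2.24-fold below MEDIA. Acaca, the acetyl-CoA carboxylase that makes malonyl-CoA, was near the floor throughout, at 32.8 with SEA/LPS, 45.6 with LPS, 46.7 with SEA and 25.5 in MEDIA.

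The desaturases held the largest measured difference of the branch. Scd2, a stearoyl-CoA desaturase, had 148 with SEA/LPS, 100.3 with LPS, 669.5 with SEA and 570.2 in MEDIA, 5.68-fold lower with LPS than in MEDIA. A second Scd2 probe set had 47.8 with SEA/LPS, 49.1 with LPS, 124 with SEA and 194 in MEDIA, 3.96-fold lower with LPS. Another Scd2 probe set, near the floor, was 1.21-fold lower. Only 0.201% of measured genes had a log2 difference as low as that of Scd2. Fads1, the delta-5 desaturase of polyunsaturated fatty acids, had 49.8 with SEA/LPS, 53.1 with LPS, 142 with SEA and 171 in MEDIA, 3.22-fold lower with LPS. Its arrays with LPS also lay apart from those without. Scd1 gave a log2 difference of -0.94 on its brighter probe set, with 89.2 with LPS against 172 in MEDIA, but 0.03 on a probe set near the floor. Fads2, the delta-6 desaturase, lay close to the floor at 59.0 with SEA/LPS, 48.7 with LPS, 19.5 with SEA and 45.0 in MEDIA.

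Among the elongases, Elovl5 (polyunsaturated chains) had 300.2 with SEA/LPS, 213 with LPS, 492 with SEA and 434 in MEDIA, 2.04-fold lower with LPS than in MEDIA, and its other probe set was 3.57-fold lower. Elovl1 (very long saturated chains) had 623 with SEA/LPS, 403 with LPS, 760.0 with SEA and 700.3 in MEDIA, a log2 difference of -0.80, with -1.43 and -0.76 on its other probe sets. For both, the LPS array was the lowest and the SEA/LPS array lay between it and the arrays without LPS. Elovl6, which extends palmitate, had 62.4 with LPS against 66.6 in MEDIA (log2 -0.09) and was under the floor only with SEA/LPS, at 31.4.

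Lipid assembly and its regulators gave the strongest bound. Lpin1 encodes lipin 1, the phosphatidate phosphatase that makes diacylglycerol, and had 37.7 with SEA/LPS, 22.4 with LPS, 207 with SEA and 211 in MEDIA, at least 6.34-fold lower with LPS than in MEDIA. Its other probe set had 24.8 with SEA/LPS, 7.3 with LPS, 182 with SEA and 136 in MEDIA, at least 4.07-fold lower with LPS. On both probe sets the arrays with LPS lay apart from those without. Mid1ip1, which promotes polymerisation of acetyl-CoA carboxylase, had 73.9 with SEA/LPS, 132 with LPS, 279 with SEA and 355 in MEDIA, 2.70-fold lower with LPS. Srebf1 differed little between LPS and MEDIA, with 355 against 386 (log2 -0.12), and was lowest with SEA/LPS at 292.

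**Figure D2:**
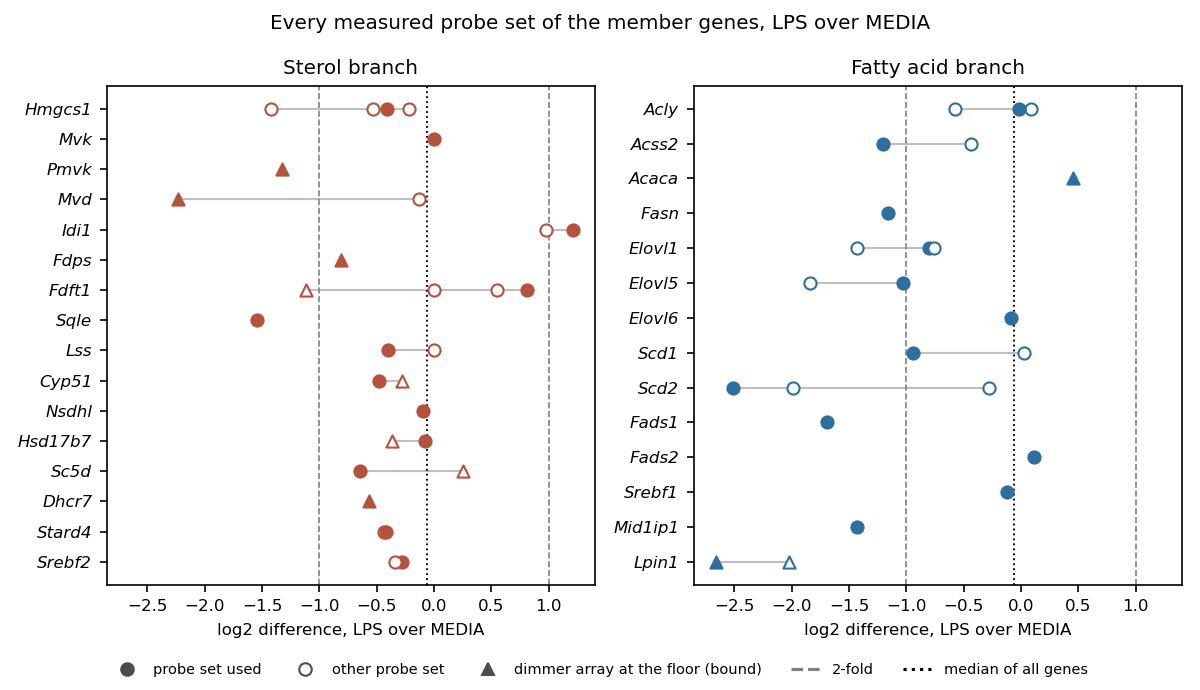
Log2 difference of LPS over MEDIA (x axis) for every measured probe set of each member gene (rows), sterol branch on the left and fatty acid branch on the right. Filled points are the probe sets used, open points the others, triangles bounds; dashed lines mark 2-fold and the dotted line the median of all genes at -0.06. Lpin1, Scd2 and Mvd reach farthest to the left, at -2.66, -2.51 and -2.23, and Idi1 alone passes 2-fold on the right. The other Mvd probe set stands at -0.13.

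Over all 54 measured probe sets of the members, without choosing 1 per gene, 16 were at least 2-fold lower with LPS than in MEDIA (29.6%), against 8.29% of all 14423 measured probe sets, and 1 was at least 2-fold higher. Their median log2 difference was -0.43, against -0.04 over all measured probe sets. Another 8 member probe sets were at the floor on all arrays. Of the 17 members with more than 1 measured probe set, the directions of the LPS difference disagreed in 4, and in 4 the probe sets lay more than 2-fold apart.

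A second comparison for LPS, of SEA/LPS over SEA, uses neither the LPS nor the MEDIA array. Here 7 of 30 members were at least 2-fold lower and 1 was higher, against 6.38% of all genes lower and 4.67% higher. The fatty acid branch gave 6 of the 7, with a median log2 difference of -0.69, and the sterol branch 1, with a median of -0.34, against -0.15 over all genes. Sqle, Fasn, Scd2, Fads1, Mid1ip1 and Lpin1 were at least 2-fold lower in both comparisons, which is 6 of the 10 called without SEA and 85.7% of the 7 called with it. These 6 of 30 members stand against 2.72% of all measured genes lower in both. Among all measured genes, 32.3% of those lower in LPS over MEDIA and 42.7% of those lower in SEA/LPS over SEA were lower in both. Over 8 alternatives of scaling, floor and probe set, added after seeing the data, 4 to 6 members were lower in both, with Sqle, Scd2, Mid1ip1 and Lpin1 in every one; under scaling to the hybridisation controls 6 members stood against 7.08% of all genes, and 0 members were higher in both. Idi1 was higher in both, as were 3.35% of all genes, and 22 of 30 members lay below 0 in both (73.3%), against 41.0% of all genes. The log2 differences were -1.24 for Fasn, -1.37 for Sqle, -1.51 for Fads1, -1.92 for Mid1ip1, -2.17 for Scd2 and -2.46 for Lpin1 in SEA/LPS over SEA. By the probe sets used, Elovl6 was at least 2-fold lower in SEA/LPS over SEA only, and Pmvk, Mvd, Acss2 and Elovl5 in LPS over MEDIA only. For Mvd the other probe set gave the opposite, with -0.13 for LPS over MEDIA and -1.01 for SEA/LPS over SEA. Whether these 5 genes differ between the comparisons was not tested. Pearson's r between the 2 sets of log2 differences was 0.73 over the 30 members and 0.68 over all measured genes, where the points of each gene share a probe set.

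**Figure D3:**
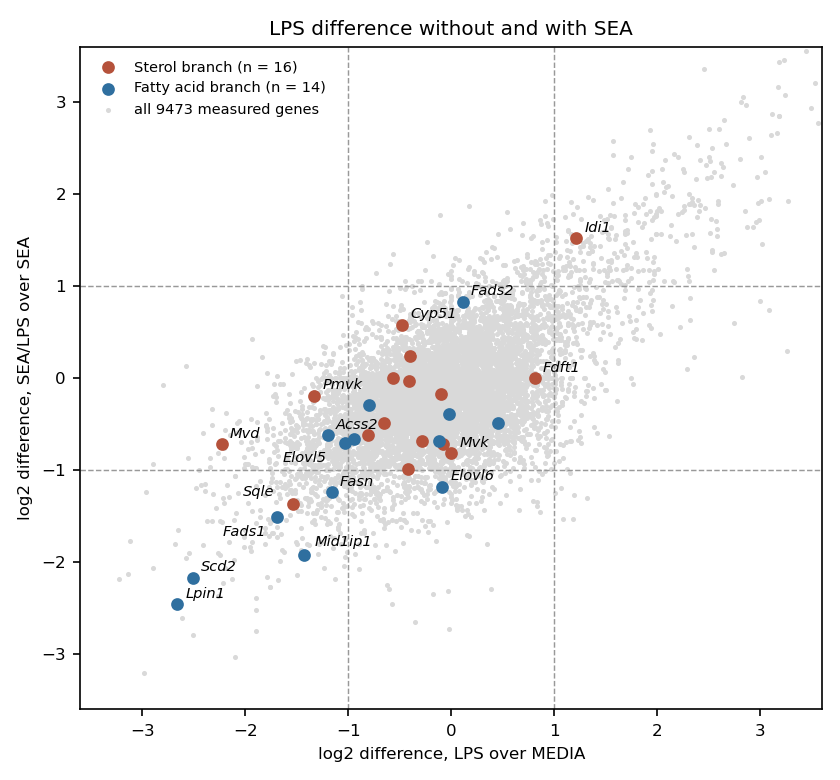
Log2 difference of LPS over MEDIA (x axis) and of SEA/LPS over SEA (y axis), which share no array, for 16 sterol members, 14 fatty acid members and all 9473 measured genes; genes beyond the axes are not drawn and dashed lines mark 2-fold. Lpin1, Scd2, Mid1ip1, Fads1, Sqle and Fasn lie in the lower left corner and Idi1 in the upper right.

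SEA alone left the members close to their MEDIA values. None of 30 was 2-fold higher or lower, and over all measured genes 0.644% were higher and 0.633% lower. The median log2 difference was 0.08 in the sterol branch and 0.15 in the fatty acid branch, against 0.00 over all genes. The values furthest from 0 were at least 1.76-fold higher for Mvk, at least 1.49-fold lower for Dhcr7, and -0.66 for Lss and 0.53 for Fasn on the log2 scale. Mvk exceeded the floor with SEA alone, and its MEDIA signal was floored. Dhcr7 exceeded the floor in MEDIA alone. The floor rule thus fixed the directions of Mvk and Dhcr7. Lss had 76.3 with SEA against 121 in MEDIA, on a probe set marked as able to cross-hybridise. Its other measured probe set went the other way, at least 1.21-fold higher with SEA. Of the 17 members with more than 1 measured probe set, the directions of this SEA difference disagreed in 10.

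When SEA was added to LPS, 1 of 30 members was at least 2-fold higher than with LPS alone and 0 were lower, against 1.39% of all genes higher and 3.47% lower. The median log2 difference was 0.04 in the sterol branch and 0.23 in the fatty acid branch, against -0.01 over all genes. The member past 2-fold was Mvd, at least 2.98-fold higher with SEA/LPS than with LPS on the probe set used. Its other probe set gave the opposite direction, with 49.4 with SEA/LPS against 102 with LPS (log2 -1.05). Cyp51 (0.96), Acss2 (0.69), Hmgcs1 (0.63) and Elovl1 (0.63) were the next highest measured on both arrays, and Srebf2 (-0.87) and Mid1ip1 (-0.83) the lowest. Among the other probe sets, 1 of Hmgcs1 reached 1.35, with 255 with SEA/LPS against 100.2 with LPS, and that of Elovl5 reached 1.16, with 130 with SEA/LPS against 57.8 with LPS. Directions of SEA/LPS over LPS disagreed in 7 of the 17 members with more than 1 measured probe set. Pearson's r between SEA over MEDIA and SEA/LPS over LPS, which share no array, was 0.06 over the members and 0.02 over all genes.

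**Figure D4:**
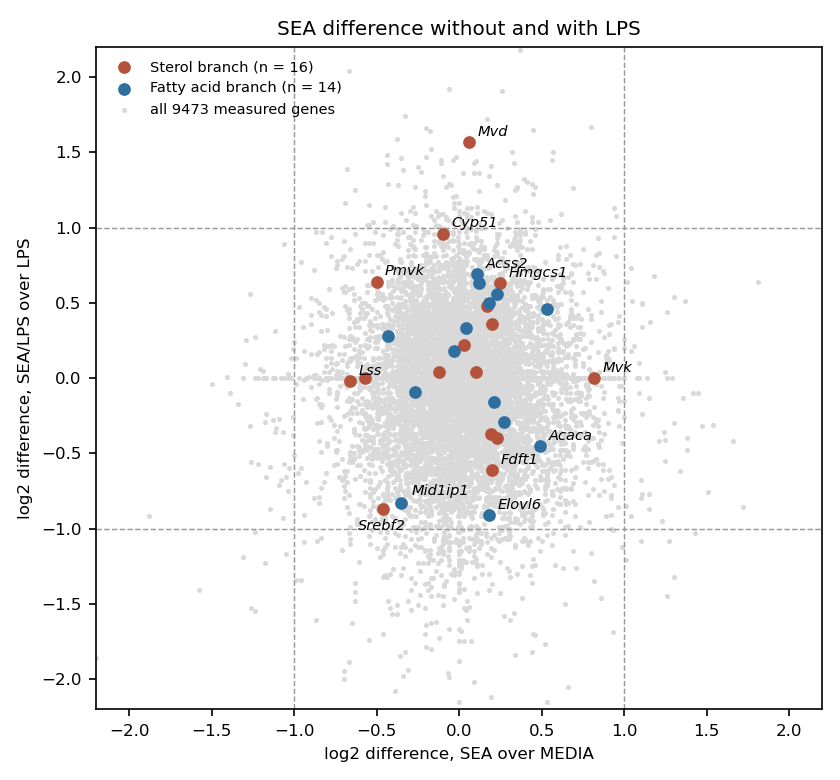
Log2 difference of SEA over MEDIA (x axis) and of SEA/LPS over LPS (y axis), which share no array, for the member genes of each branch and all 9473 measured genes; genes beyond the axes are not drawn and dashed lines mark 2-fold. Mvd alone among the members passes 2-fold, on the y axis.

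Cells given both agents, set against MEDIA, had 7 of 30 members at least 2-fold lower and 1 higher, against 7.05% of all genes lower and 4.54% higher. The fatty acid branch held 5 of the 7, with a median log2 difference of -0.57, and the sterol branch 2, with a median of -0.45, against -0.12 over all genes. Lpin1 (-2.49), Mid1ip1 (-2.26), Scd2 (-1.94), Fads1 (-1.78), Sqle (-1.49) and Srebf2 (-1.15) were the measured ones, and Elovl6 was lower by a bound. Srebf2 gave -0.81 on its other probe set. It stayed past 2-fold in 5 of 8 alternatives of scaling, floor and probe set, and Elovl6 in 4 of 7. Idi1 was the higher one, at 1.69. This comparison shares the MEDIA array with LPS over MEDIA.

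**Figure D5:**
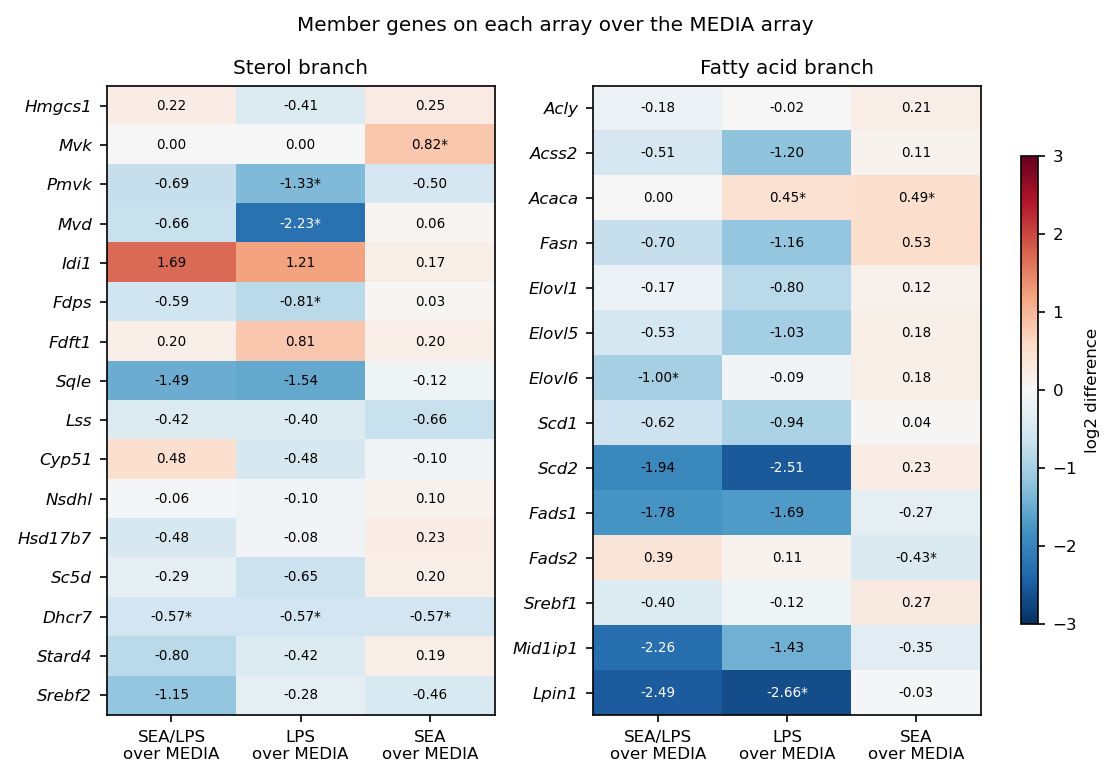
Log2 difference of the SEA/LPS, LPS and SEA arrays over the MEDIA array (columns) for each member gene (rows), coloured from blue (lower) to red (higher), with asterisks for bounds. In the SEA column no member reaches 2-fold, while Scd2 stands at -1.94 with SEA/LPS and -2.51 with LPS.

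The log2 difference of SEA/LPS over LPS minus that of SEA over MEDIA measures how far the combined exposure departs from the sum of the single ones. It was 1 or more for 3 members, Mvd (1.51), Pmvk (1.14) and Cyp51 (1.06), which is 10.0% of the members against 3.16% of all genes. It was -1 or less for Elovl6 (-1.09), which is 3.33% against 6.54%. Mvd and Pmvk rest on an LPS signal under the floor, and the other probe set of Mvd gave -0.87. Elovl6 rests on a SEA/LPS signal under the floor. The other measured probe set of Cyp51, near the floor, gave 0.42. The medians were 0.18 for the sterol branch and 0.19 for the fatty acid branch, against -0.06 over all genes, with an SD of 0.54 between probe sets of 1 gene.

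The listed neighbours of the 2 branches were read in the same way for LPS over MEDIA, where 8.43% of all genes were lower and 6.06% higher. In the list of other sterol synthesis enzymes, 3 of 6 measured were at least 2-fold lower and 0 higher. This list includes Acat1, whose enzyme is mitochondrial, while sterols are built from cytosolic acetyl-CoA. The count is therefore not one of the sterol pathway alone. Msmo1, the C4-methyl sterol oxidase, had 118 with SEA/LPS, 61.7 with LPS, 184 with SEA and 228 in MEDIA. LPS gave the lowest signal, and both arrays with LPS lay below both without. The other 2 were Lbr (sterol C14 reductase and lamin B receptor), at least 3.05-fold lower, and Acat1 (mitochondrial acetoacetyl-CoA thiolase), 2.28-fold lower on the probe set used and 2.24-fold on another. In SREBP processing and sterol uptake, 3 of 8 were lower and 0 higher: Scarb1, the HDL receptor (2.33-fold, and 1.41-fold and 1.46-fold on its other probe sets), Npc1, which exports cholesterol from lysosomes (2.29-fold), and Lipa, the lysosomal acid lipase (2.09-fold). All 3 Lipa probe sets were at least 2-fold lower with LPS.

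In the list of LXR and sterol efflux genes, 2 of 12 were lower and 1 higher. Ch25h, which makes 25-hydroxycholesterol, an oxysterol that holds SREBP processing back, had 421 with SEA/LPS, 499 with LPS, 52.5 with SEA and 38.1 in MEDIA, 13.1-fold higher with LPS than in MEDIA. Both arrays with LPS lay far above both without. Abcg1, a sterol exporter, was 2.27-fold lower and Rxrb, a partner of LXR, 2.22-fold lower. A second probe set of Rxra, another partner of LXR, was at least 4.40-fold lower, while the one used was 1.28-fold higher. Other fatty acid synthesis genes gave 2 of 12 lower and 0 higher, the 3-hydroxyacyl-CoA dehydratases Hacd4 (3.24-fold) and Hacd1 (2.84-fold). Of 3 measured genes for cytosolic NADPH supply, 1 was lower, Idh1, the cytosolic isocitrate dehydrogenase, with 446 with SEA/LPS, 134 with LPS, 1901 with SEA and 2390.4 in MEDIA. Its other probe set had 57.7 with SEA/LPS, 48.2 with LPS, 367 with SEA and 249.1 in MEDIA, 5.17-fold lower with LPS than in MEDIA. By the probe sets used, Idh1 alone among the genes of these neighbouring lists passed 2-fold in SEA/LPS over LPS, 3.33-fold higher, but its other probe set was 1.20-fold higher. Other probe sets past 2-fold in that comparison were those of Abca1, a sterol exporter (2.31-fold higher), Pltp, the phospholipid transfer protein (2.26-fold lower), and Hacd3, another dehydratase (2.69-fold lower). The Abca1 one had 34.3 with LPS and the Hacd3 one 33.7 with SEA/LPS, both just above the floor. The probe sets used were 1.88-fold higher for Abca1, 1.02-fold lower for Pltp and 1.65-fold lower for Hacd3. By the probe sets used, Rxrb alone passed 2-fold in SEA over MEDIA, 2.65-fold lower.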

How the data were processed

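RNA of 4 samples (1 per group) was read on Affymetrix arrays. The deposited values are linear intensities per probe set. Their 2% trimmed means are equal on all arrays, so the values are scaled; no source used here names how or with what software. Of 22690 probe sets, 20380 had 1 gene symbol, 691 several and 1555 none in the platform annotation, and 64 were controls; 20351 matched the RefSeq gene table. With Python 3.11.15, pandas 2.3.3 and numpy 2.4.6, signals were floored at the 40th percentile (33.3) and taken to log2. The probe set with the highest mean floored log2 value stood for its gene. A gene was measured if above the floor on at least 1 array, and called at 2-fold or more. With 1 array per group, no test was run and nothing was averaged over samples. The steps were tested on simulated data, with changes planted only in genes well above the floor. Bounds and disagreement between probe sets were not tested in this way. All members were described, and genes of neighbouring lists were named when past 2-fold. The members, lists and tests were chosen with earlier results of these data known. Alternatives changed the scaling, the floor, the probe set rule and the threshold; SEA/LPS over SEA was added after seeing the data, with its alternatives.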

Additional observations from a re-analysis of the deposited data

How the results depend on the processing

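For LPS over MEDIA, all 11 members past 2-fold kept their direction in all 8 alternatives of scaling, floor and probe set, and Sqle, Scd2, Fads1, Mid1ip1 and Lpin1 also stayed past 2-fold in all 8. Over the 4 comparisons other than SEA/LPS over SEA, 868 of 936 member values moved by less than the SD between probe sets. The move was larger for 67. A reversal was counted only for values past 2-fold as first processed, and 1 was found. It was Mvd in SEA/LPS over LPS, at -1.05 without probe sets marked as able to cross-hybridise. Smaller values could change sign without being counted as reversed. Without those probe sets, Lss in SEA over MEDIA went from -0.66 to 0.27, the latter a bound. Scaling to the hybridisation controls moved the median of all genes for LPS over MEDIA to -0.56, against -0.06 as deposited. Under it the LPS over MEDIA medians were -0.96 (sterol) and -1.54 (fatty acid) and 0 members were higher, with 15 of 30 lower against 25.5% of genes; relative to all genes, the sterol median ran from -0.40 to -0.18 and the fatty acid median from -1.13 to -0.82 over the settings. The share of all calls that were higher for LPS over MEDIA was 41.8% as deposited, 55.4% at equal 75th percentiles and 10.5% by the hybridisation controls. For SEA/LPS over LPS it was 28.6% as deposited, 39.5% at equal 75th percentiles, 43.4% after quantile normalization and 69.1% by the controls, and for SEA/LPS over MEDIA 39.2%, 58.6%, 51.9% and 16.5% in that order. The controls also gave SEA/LPS over LPS 0.25 (sterol), SEA/LPS over MEDIA -0.76 (sterol) and -0.88 (fatty acid), and for the departure from additivity 0.49 (sterol) and 0.38 (fatty acid). That departure turned to -0.09 for the fatty acid branch when all probe sets of a gene were averaged, and SEA over MEDIA to -0.03 for the sterol branch. Without cross-hybridising probe sets the fatty acid median was -1.18 for LPS over MEDIA and 0.01 for SEA over MEDIA. For SEA/LPS over LPS the fatty acid median was 0.40 after quantile normalization and 0.00 with the floor at the 60th percentile. For SEA/LPS over MEDIA the sterol median was -0.25 at equal 75th percentiles, -0.23 after quantile normalization and -0.23 with the 60th percentile floor, and the fatty acid median -0.37 at equal 75th percentiles. At 1.5-fold, 2 members were higher for LPS over MEDIA, 1 higher and 1 lower for SEA over MEDIA, 6 higher and 4 lower for SEA/LPS over LPS, and 13 lower for SEA/LPS over MEDIA. For SEA over MEDIA, the 20th percentile floor gave 1 higher and 2 lower, and a pseudocount of 16 gave 1 higher. For SEA/LPS over LPS, 2 members were higher at equal 75th percentiles, after quantile normalization, by the controls, with the 20th percentile floor and with the pseudocount, 0 with the 60th percentile floor or averaged probe sets, and 1 was lower without cross-hybridising probe sets. SEA/LPS over SEA gave a fatty acid median of -0.69, against -0.99 for LPS over MEDIA; it was -0.49 at equal 75th percentiles and -0.92 by the controls. Its sterol median was -0.15 at equal 75th percentiles, -0.16 after quantile normalization, -0.57 by the controls and -0.17 with the 60th percentile floor. There 2 members were higher with the 20th percentile floor and with the pseudocount, and by the controls 0 were higher in both LPS comparisons. The cause of these moves was not tested. No paired analysis was possible because each group has 1 array, and no array could be left out for the same reason. Genes near the floor have no order below it.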

Other observations

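Of 12 measured genes of fatty acid oxidation, 2 were at least 2-fold lower, 0 were higher and 11 lay below 0, where 8.43% of all genes were lower and 53.3% lay below 0. Acadm, the medium-chain acyl-CoA dehydrogenase, had 195 with SEA/LPS, 111 with LPS, 347 with SEA and 416.5 in MEDIA, 3.75-fold lower with LPS. Ppargc1b, a coactivator of mitochondrial and lipid genes, had 12.9 with SEA/LPS, 18.9 with LPS, 203 with SEA and 203 in MEDIA. It was under the floor on both arrays with LPS and at least 6.08-fold lower with LPS than in MEDIA. Of 9 glycerolipid genes, 1 was at least 2-fold lower, a share near that of all genes. It was Mgll (monoglyceride lipase), with 588 with SEA/LPS, 387 with LPS, 1149 with SEA and 1477 in MEDIA, 3.81-fold lower with LPS than in MEDIA. Of its other probe sets, 1 was 3.74-fold lower, 1 was 2.25-fold lower and a dim one was 1.35-fold higher. Lpin2, a paralogue of Lpin1, went in the other direction from it, with 342 with SEA/LPS, 249.9 with LPS, 167 with SEA and 151 in MEDIA, 2.27-fold higher with SEA/LPS than in MEDIA. Of its other probe sets, 1 was at least 2.14-fold higher in that comparison and 1 was under the floor on both arrays.

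Acsl4, which activates arachidonate, differed between its probe sets. The probe set used had 360 with SEA/LPS, 242 with LPS, 202 with SEA and 133 in MEDIA, and another had 201 with SEA/LPS, 222 with LPS, 63.6 with SEA and 55.5 in MEDIA, 3.99-fold higher with LPS than in MEDIA. The remaining one had 176 with SEA/LPS, 131 with LPS, 87.5 with SEA and 106 in MEDIA, 1.24-fold higher with LPS. On each of the 3, the arrays with LPS lay above those without.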
